A study of Aspergillus niger with 6 samples.

Results

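The last step of a citrate fermentation by the filamentous fungus Aspergillus niger was the difference between the culture at 48 h and the culture at 36 h. Both libraries came from strain H915-1, grown as pellets with air supplied at 3 vvm (culture volumes of air each minute). The series also held libraries at 6, 12 and 24 h under the same air supply and 1 library at 48 h under 1.5 vvm. Each of these 6 groups had 1 library, so no difference described here has a replicate check and no p-value is given for the last step. Genes were included when they had at least 1 FPKM at 48 h or at 36 h, which held for 8866 of the 9953 genes listed for the time course (FPKM is the fragment count scaled to transcript length and library size). The remaining 1087 were under 1 FPKM in both libraries, 114 of them between 0.8 and 1 FPKM. Across the series, 10257 genes were listed.

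Aspergillus niger turns sugar into citrate and releases it into an acidifying medium when sugar and oxygen are plentiful and metals such as manganese are scarce. Glycolysis feeds citrate synthase in the mitochondria, citrate is exported, and an alternative respiratory route can use up reducing power without making as much ATP. Growth is known to slow while acid accumulates. The gene identifiers of the files are not paired with names or functions, and 0 of them matched the 14404 genes of the reference table for assembly ASM285v2. Genes are therefore described by identifier or by position on the authors' contigs, and strain and pathway genes could not be checked by name.

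The library at 48 h held 6100480 fragments and the library at 36 h 5371485 fragments. Where no fragment was counted, up to 3 may have been missed, worth 0.436 FPKM at 48 h and 0.494 FPKM at 36 h in a gene of median length. Intervals beside a fold or a share of fragments are exact 95% Clopper-Pearson intervals, of the fragment ratio relative to depth or of the share, and they cover counting error only. The sources used here do not give the strand setting, and reads of overlapping or near-identical genes may have been shared between them.

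Most genes stood at nearly the same level at 48 h as at 36 h. On the log2(FPKM + 1) scale, which understates the change of low genes, 84.7% of the genes lay within 1.5-fold, the median log2 change was -0.04 and the SD across genes was 0.50. At least 2-fold higher at 48 h were 245 genes (2.76% of the genes included), and 179 (2.02%) were lower by the same measure. Differences of 4-fold or more were seen in 43 higher and 15 lower genes. Near the 2-fold limit the genes were dense. Just past it, between 2-fold and 2.2-fold, lay 66 higher and 58 lower genes, and 104 on each side lay just short of it, between 1.8-fold and 2-fold. The 66 just past it on the higher side had medians of 8.83 FPKM at 48 h and 3.68 FPKM at 36 h, and the 104 just short of it had medians of 10.2 FPKM at 48 h and 4.94 FPKM at 36 h.

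**Figure D1:**
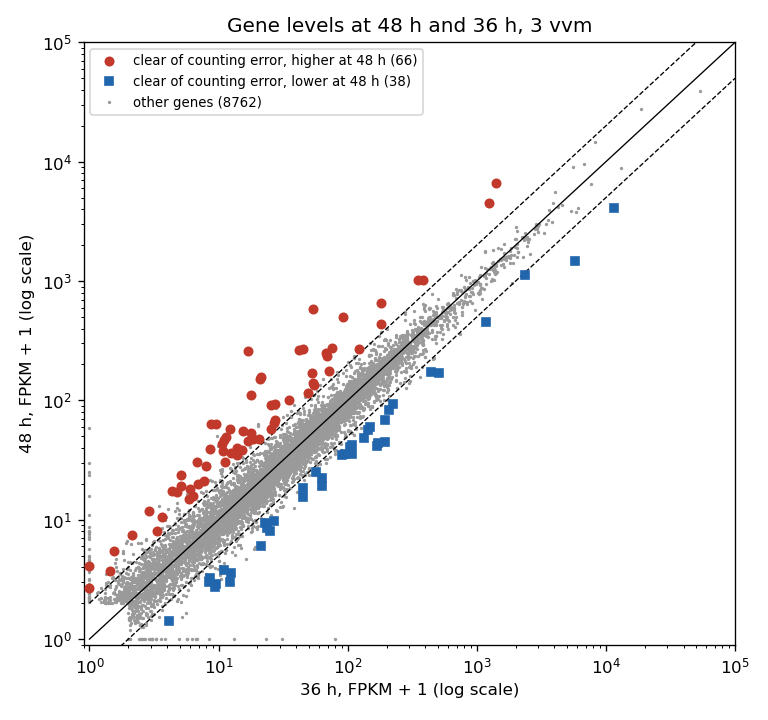
Level of each of the 8866 genes at 48 h (vertical axis) and at 36 h (horizontal axis), both as FPKM + 1 on log scales, with a solid line at equality and dashed lines at 2-fold. Red circles are the 66 genes higher at 48 h and blue squares the 38 lower genes whose whole counting interval lay past 2-fold, and grey points are the other genes, which widen about the line at low levels.

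The other steps of the course held more genes past 2-fold. They were 1312 genes (14.8%) at 12 h against 6 h, 854 (9.66%) at 24 h against 12 h and 773 (8.74%) at 36 h against 24 h, of which 497 (5.62%) were higher and 276 (3.12%) lower, in contrast to 424 (4.78%) at 48 h against 36 h. The first of these steps spans 6 h and each of the others 12 h. The middle 50% of genes lay between log2 changes of -0.25 and 0.19 at the last step, against -0.39 and 0.37 at 12 h against 6 h. Among 4212 genes that averaged at least 200 fragments over the 5 times, the SD of the log2 fragment ratio was 0.37 at the last step. It was 0.85 at 12 h against 6 h, 0.60 at 24 h against 12 h and 0.55 at 36 h against 24 h, while counting error alone would give 0.10 to 0.12 in these steps. These orders were not tested, since each time has 1 library.

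**Figure D2:**
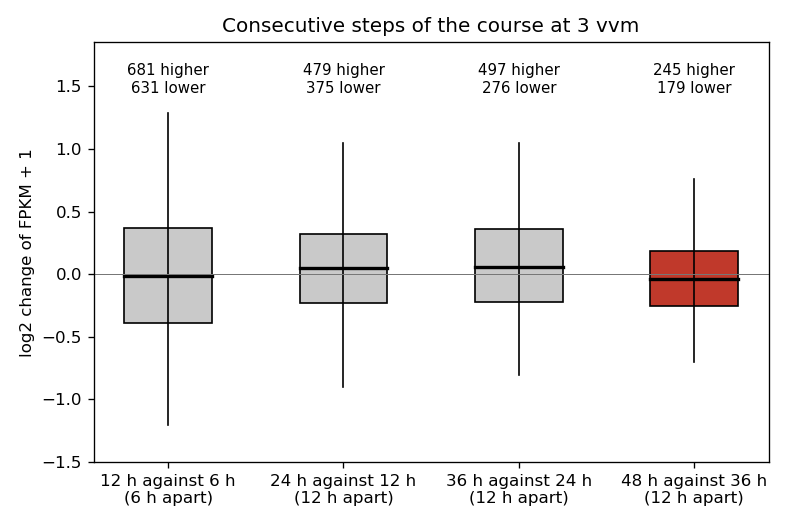
Log2 change of FPKM + 1 across genes for the 4 consecutive steps at 3 vvm, with the median as a bar, the middle 50% as a box and the range from the 5th to the 95th percentile as a line. The last step, in red, spans log2 changes from -0.70 to 0.76 between those percentiles, and the numbers above each box are genes at least 2-fold higher and lower.

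The number of genes past 2-fold was compared with what counting error alone gives. If every gene had the same level at both times, the exact binomial distribution of fragments would place 133 genes past 2-fold, 119 of them among genes of under 20 fragments over both libraries. Of the 610 genes with so few fragments, 90 were higher and 58 lower, where counting error would give 60.1 and 59.2. Among the 1489 genes of 20 to 99 fragments, 54 were higher and 45 lower, where counting error would give 14.2 in all. The 4419 genes of at least 100 but under 1000 fragments held 70 higher and 53 lower genes, and the 2348 genes of at least 1000 fragments held 31 higher and 23 lower, where counting error would give fewer than 1 gene in both groups together.

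The spread followed the same order. In genes of under 20 fragments the SD of the log2 fragment ratio was 1.26, beside 1.24 from counting error. In genes of at least 1000 fragments it was 0.37, beside 0.07. The SD from counting error is approximated from each gene's own fragments. That approximation is poor under 20 fragments, so 1.26 and 1.24 cannot be read as a match. For 63.3% of the genes of at least 1000 fragments the counting interval excluded equal levels, against 3.28% of the genes of under 20 fragments. The whole interval lay within 2-fold either way for 6472 of the 8866 genes, and for 2271 of the 2348 genes of at least 1000 fragments. How much of the spread beyond counting error is spread between cultures or libraries of 1 time was not tested, since no time has a second library.

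**Figure D3:**
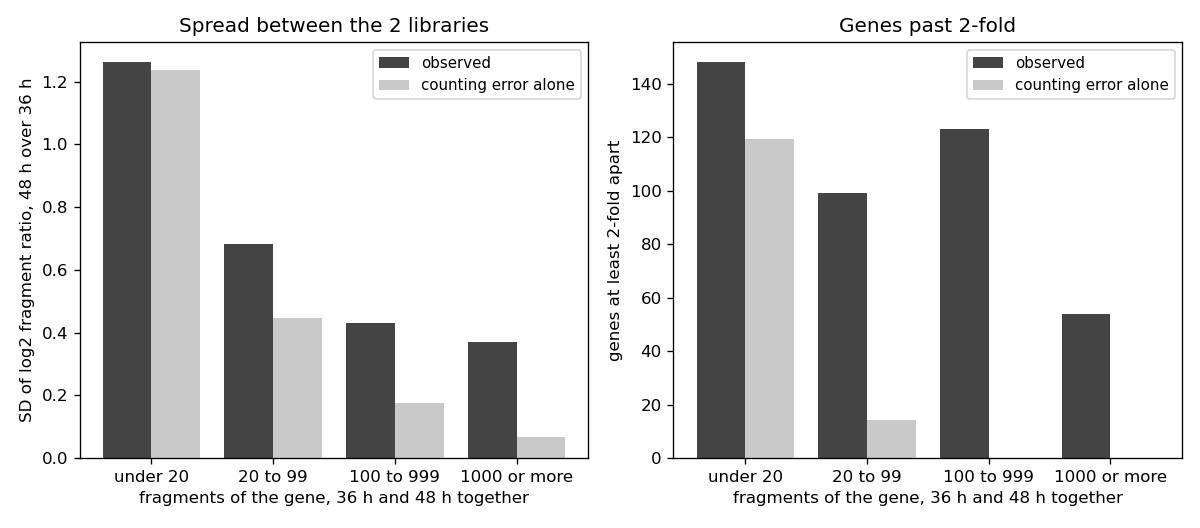
Genes of the 48 h against 36 h step grouped by their fragments in both libraries, with dark bars for the observed value and light bars for counting error alone. The left panel gives the SD of the log2 fragment ratio, which is 1.26 beside 1.24 in the lowest group and 0.37 beside 0.07 in the highest. Its light bars are an approximation that is poor at few fragments. The right panel gives genes at least 2-fold apart.

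A gene is called clear of counting error here when its whole interval lay past 2-fold. This held for 66 genes higher at 48 h (0.744%) and 38 genes lower (0.429%), and every one of them was also past 2-fold in FPKM. The interval takes fragments alone and adds no pseudocount. They had medians of 572.5 and 561 fragments over both libraries. In the middle of the 66 higher genes stood 53.4 FPKM at 48 h against 15.2 FPKM at 36 h (medians), with a log2 change of 1.79. For the 38 lower genes these were 34.3 FPKM at 48 h against 91.7 FPKM at 36 h and -1.48. Since pellets were sequenced in bulk, fewer hyphae that express a gene and less RNA of it per hypha cannot be told apart.

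Genes that appeared or vanished between the 2 libraries did so at low counts. Of the genes included, 31 had 0 fragments at 48 h and 50 had 0 fragments at 36 h. Only 11 of the 50 had more than 3 fragments at 48 h, and at most 12. Both genes with 12 fragments at 48 h and 0 at 36 h were 3.52-fold higher when set against 3 fragments at 36 h, and their lower 95% limit was 2.45-fold. In the other direction 3 genes passed 3 fragments. The one with 0 fragments at 48 h and 6 at 36 h was 2.27-fold lower when 3 fragments are allowed at 48 h, with a lower 95% limit of 1.34-fold. That gene, on unitig_1 from 4608281 to 4609696, stood at 109, 47.2, 2.80 and 1.66 FPKM in the libraries from 6 to 36 h, so it was already low by 24 h.

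The rule for named genes took the largest log2 changes, with a minimum of 10 FPKM in either library, and it met genes of 1 or 2 fragments. Its higher genes had 2 and 1 fragments at 48 h and 0 at 36 h, and its lower genes had 0 fragments at 48 h and 1 each at 36 h. A fragment weighs much in FPKM on a short transcript. Among the 83 genes with 1 fragment at 36 h, that fragment was worth between 0.149 and 78.7 FPKM, with a median of 1.72 FPKM. The genes named below were therefore taken in the same order from those with at least 100 fragments in the higher library, a limit set after the values were seen. Their differences are what chose them.

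The gene evm.model.unitig_1.500 (unitig_1, 1756418 to 1757170) had the largest upward difference. Its course in FPKM from 6 to 48 h was 3.53, 1.24, 2.76, 15.9 and 258. It had 705 fragments at 48 h and 39 at 36 h, which is 15.9-fold higher relative to depth (95% interval 11.5 to 22.6). Low through 24 h, it was highest in the last library, and at 48 h under 1.5 vvm it was at 138 FPKM.

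Next came evm.model.unitig_2.1242 (unitig_2, 4146864 to 4147336), which had 278 fragments at 48 h and 21 at 36 h, 11.7-fold higher (7.48 to 19.1). In the 5 libraries from 6 to 48 h its values were 0, 0, 353, 53.1 and 582 FPKM. The course thus has a peak at 24 h and a trough at 36 h. Under 1.5 vvm it stood at 4141 FPKM.

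In the other direction, evm.model.unitig_6.74 (unitig_6, 265818 to 267295) had 296 fragments at 48 h and 1137 at 36 h, which is 4.36-fold lower (3.84 to 4.97). Over the 5 times it was at 71.6, 323, 80.4, 192 and 43.5 FPKM, alternating between high at 12 and 36 h and low at the other times. Likewise evm.model.unitig_4.1068 (unitig_4, 3790509 to 3792053) had 331 fragments at 48 h and 1235 at 36 h, a difference of 4.24-fold (3.75 to 4.80). It stood at 11.2, 124, 87.5, 168 and 40.2 FPKM from 6 to 48 h, highest at 36 h.

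The 12 genes with the largest upward difference at 100 fragments or more were 4.86-fold to 15.9-fold higher at 48 h. Of these, 7 were at their highest at 48 h among the 5 times, 4 at 24 h and 1 at 6 h. The way they were chosen favours a peak at 48 h and excludes one at 36 h. In 5 of the 12 the level at 24 h was at least 4 times that at 12 h, so these had been up once before the low value at 36 h. The gene on unitig_4 from 1012158 to 1012660 is the sharpest of them, at 7.94, 9.22, 2580, 41.0 and 264 FPKM over the 5 times. On unitig_0 from 1271584 to 1273380 the course was 0, 0.336, 195, 20.4 and 157 FPKM. Different from both was the gene on unitig_6 from 1959142 to 1962419, which stayed at or below 1.12 FPKM through 24 h and had 62.1 FPKM at 48 h against 7.70 FPKM at 36 h. Under 1.5 vvm it was at 4.64 FPKM.

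The 12 genes with the largest downward difference were 2.95-fold to 4.45-fold lower at 48 h, a narrower range than on the upward side. Of these, 7 had their peak in the library from 36 h, 3 in that from 12 h and 2 in that from 6 h. Here the choice of genes favours a peak at 36 h and excludes one at 48 h. The gene on unitig_0 from 3329222 to 3332421 alternated, with 399, 727, 169, 510 and 170 FPKM from 6 to 48 h. On unitig_5 from 1074203 to 1075038 the 5 libraries gave 7072, 1027, 99.3, 170 and 43.3 FPKM in order of time, so the last step came after most of a large earlier decline.

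Past 2-fold there were also genes of high level. Of the 139 genes that reached 1000 FPKM at 48 h or 36 h, 4 were higher and 4 lower at 48 h, and the 8 of them were clear of counting error. The short gene on unitig_2 from 4754900 to 4755402 climbed at each time, with 166, 323, 491, 1421 and 6649 FPKM, and had 9126 fragments at 48 h and 1654 at 36 h (4.86-fold higher, 4.61 to 5.12). It stood at 1458 FPKM under 1.5 vvm, close to its level at 36 h. The gene on unitig_6 from 790287 to 791447 ran the other way before the last step, with 6638, 2970, 2500 and 1239 FPKM from 6 to 36 h, and was at 4514 FPKM at 48 h. Among the lower genes, the one on unitig_4 from 3053986 to 3054454 had 4080 FPKM at 48 h, against 11544 to 14549 FPKM at the 4 earlier times. Its level under 1.5 vvm was 24384 FPKM. The gene on unitig_4 from 264162 to 264678 had 1463 FPKM at 48 h against 5748 FPKM at 36 h, beside 759, 2457 and 1529 FPKM at 6, 12 and 24 h.

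Few genes carried much of the difference in the fragments themselves. A total of 10.7% of the fragments were placed on other genes at 48 h than at 36 h, and 101 genes made up 50% of that. The same quantity was 12.4% at 36 h against 24 h, spread over 213 genes, 11.2% at 24 h against 12 h over 243 genes, and 17.0% at 12 h against 6 h over 171 genes. By this measure the last step was close to the one from 12 to 24 h, although it held 424 genes past 2-fold against 854.

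The largest gains were in genes that stayed below 2-fold. The gene on contig 1 from 934992 to 938115 took 4.04% of the fragments at 48 h (4.02 to 4.05) and 2.27% at 36 h (2.26 to 2.29). The gene on contig 1 from 2874224 to 2876395 took 4.32% at 48 h (4.30 to 4.33) and 2.92% at 36 h (2.90 to 2.93). Together with a gene on unitig_4 from 3214751 to 3233062, at 2.72% and 1.97%, they made up 36.7% of all gains. These 3 genes had been at 2.85%, 4.61% and 3.05% at 12 h, so 36 h was the low point of their courses at 3 vvm. The largest loss was in the gene on unitig_2 from 3499129 to 3499977, at 2.63% at 48 h and 3.72% at 36 h. The top 10 genes held 18.9% of the library at 48 h and 16.2% of that at 36 h, and 9 of the 10 were the same.

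The clear genes were also read in the 3 libraries that did not choose them. Medians of the 66 genes higher at 48 h were 2.44, 3.00 and 11.9 FPKM in the libraries from 6, 12 and 24 h, against 15.2 FPKM at 36 h. Those of the 38 lower genes were 12.5, 37.7 and 21.4 FPKM in the same libraries, against 91.7 FPKM at 36 h. Among the libraries that did not choose them, the lower genes had their highest median at 12 h. Their high level at 36 h was used to choose them. Below 1 FPKM in each of the libraries at 6, 12 and 24 h were 6 of the 66 higher genes (9.09%) and 0 of the 38 lower ones, against 174 of all 8866 genes (1.96%). Of all genes past 2-fold, 42 of the 245 higher (17.1%) and 20 of the 179 lower (11.2%) were below 1 FPKM there. The step from 24 to 36 h shares the library at 36 h with the last step, so only levels are given for it.

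**Figure D4:**
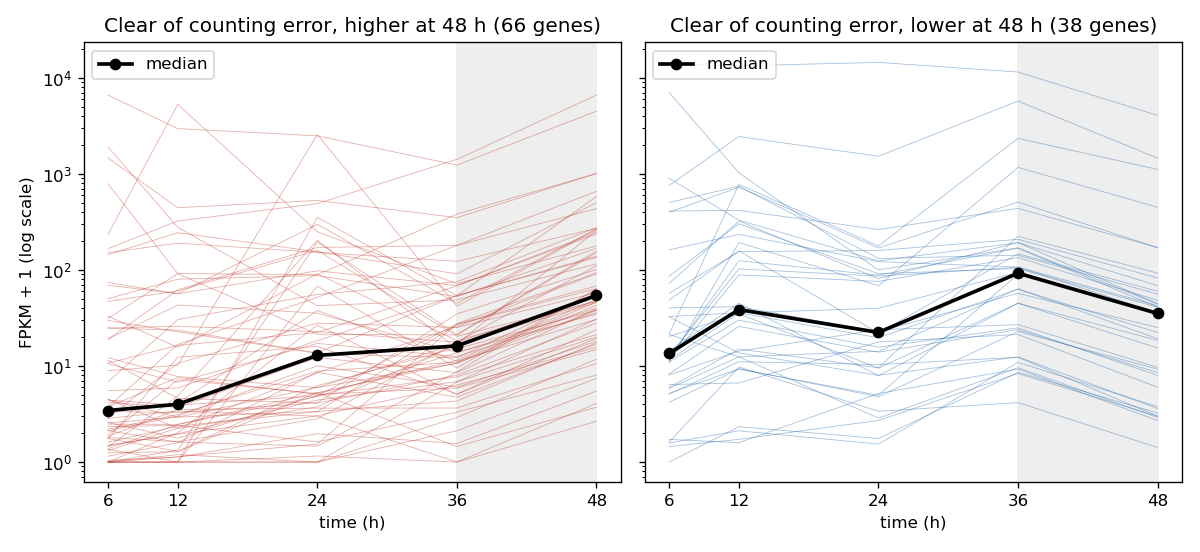
FPKM + 1 on a log scale against time for the genes clear of counting error, 66 higher at 48 h on the left and 38 lower on the right, each thin line 1 gene and the black line their median. The shaded span is the step that chose the genes, and on the right the median before that span is 12.5 FPKM at 6 h, 37.7 FPKM at 12 h and 21.4 FPKM at 24 h.

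Steps that share no library with the last one were read for the same genes. At 24 h against 12 h, 26 of the 66 genes (39.4%) were at least 2-fold higher and 3 (4.55%) lower, beside 5.42% and 4.24% of all genes in that step. Shares are of the whole list, and 59 of the 66 genes reached 1 FPKM in that step. Of the 38 genes lower at 48 h, 2 (5.26%) were higher at 24 h and 13 (34.2%) lower. The share was larger in the same direction than in the other one in both lists. The 26 genes are 5.43% of the 479 genes higher at 24 h, and the 13 genes are 3.47% of the 375 genes lower there. With all 245 and 179 genes in place of the clear ones, the shares in the same direction were 23.7% and 20.7%, and those in the other direction 8.16% and 8.94%. Over 8640 genes included in both steps, the log2 changes had a Pearson correlation of 0.22, as a description across genes, which are not replicates.

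At 12 h against 6 h, 20 of the 38 genes lower at 48 h (52.6%) were at least 2-fold higher and 3 (7.89%) lower, beside 7.66% and 7.1% of all genes. Of the 66 genes higher at 48 h, 12 (18.2%) were higher at 12 h and 7 (10.6%) lower. These shares are again of the whole lists, while 51 of the 66 and 36 of the 38 genes reached 1 FPKM in that step. The 20 genes are 2.94% of the 681 genes higher at 12 h. With all 179 lower genes in place of the clear ones, 25.7% were higher and 11.7% lower. With all 245 higher genes these shares were 16.3% and 13.9%. The correlation of log2 changes over 8591 genes was -0.08. The lists were not matched on level. Both of these earlier steps use the library at 12 h, so their shares are not separate readings. A gene high in that library tends to be higher in the first step and lower in the second. Whether the high level of the lower genes at 12 h belongs to the culture or to the library was not tested, and no label gives a batch.

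**Figure D5:**
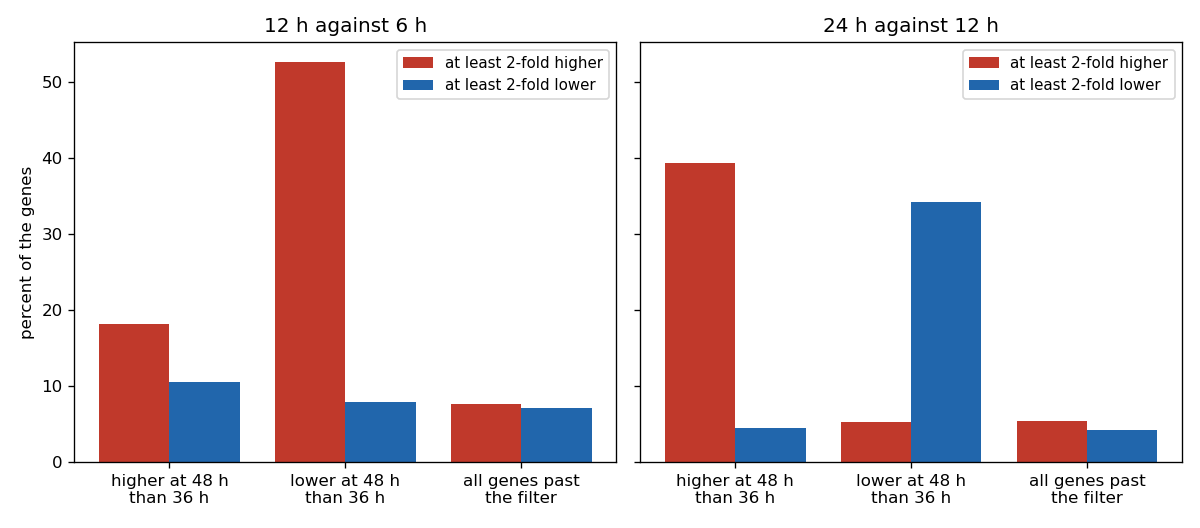
Percent of genes at least 2-fold higher (red) and lower (blue) at 12 h against 6 h on the left and at 24 h against 12 h on the right, for the 66 clear genes higher at 48 h, the 38 clear genes lower at 48 h and all genes included in that step. Among the 38 genes lower at 48 h, 52.6% were higher at 12 h, beside 7.66% of all genes. At 24 h 34.2% of them were lower, beside 4.24% of all genes. Both steps use the library at 12 h, so the panels are not independent.

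The library under 1.5 vvm at 48 h was set against the library at 24 h of its own table, which also shares no library with the last step. The 2 libraries of that pair differ in both time and air supply, which cannot be told apart. Their FPKM sums were 1092500 under 1.5 vvm and 902578 at 24 h, with 7 and 782 genes at 0. The 9788 genes that passed the filter in that pair had a median log2 change of 0.33, with 22.7% at least 2-fold higher and 1.5% lower. Only 8841 of them were also included in the last step, so this background is not matched to the lists. Of the 66 genes higher at 48 h, 37 (56.1%) were higher and 8 (12.1%) lower. Of the 38 lower genes, 18 (47.4%) were higher and 1 (2.63%) lower. Both shares of higher genes lay above the 22.7% of that background, a difference that was not tested.

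Neighbouring genes went together in few places. A run was taken as 3 or more adjacent genes past 2-fold in 1 direction, and 4 were found, 2 of them higher at 48 h and 2 lower. Log2 changes of direct neighbours had a correlation of 0.12 over 8846 pairs, 0.04 between genes 2 places apart and 0.01 between genes 10 places apart. In the other steps it was 0.19 for direct neighbours at 12 h against 6 h, 0.16 at 24 h against 12 h and 0.16 at 36 h against 24 h.

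The longest run had 5 genes, on unitig_6 from 26302 to 41402. Their log2 changes lay between 1.50 and 1.82. In FPKM the median of the 5 genes was 0.0419, 0.124, 2.65, 4.35 and 16.3 in order of time. Counts were low at 36 h, between 1 and 95 fragments, and between 4 and 367 at 48 h, and in 2 of the 5 genes the interval included equal levels. The gene from 31395 to 36734 had 129 fragments at 48 h and 14 at 36 h, 8.11-fold higher (4.66 to 15.3). Beyond the run, the next gene, from 41749 to 42801, had 92.2 FPKM at 48 h against 101 FPKM at 36 h. The gene from 43603 to 44459 had 35.3 FPKM against 21.2 FPKM at these times, and the one from 45334 to 47093 had 10.1 FPKM against 3.91 FPKM. Under 1.5 vvm the 5 genes had a median of 177 FPKM.

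The other higher run lay on contig 1 from 4289730 to 4295529, with 3 genes. Its last gene, from 4293928, was at or below 0.537 FPKM through 24 h and had 92.6 FPKM at 48 h and 26.5 at 36 h. The first gene rested on 7 fragments at 48 h and 1 at 36 h. Both lower runs lay on contig 1. One spans 147247 to 151817, where the 3 genes had a median of 38.2 FPKM at 48 h against 78.0 FPKM at 36 h, after 213, 225 and 88.1 FPKM at the earlier times. The other spans 3743181 to 3774874, with 57.6 FPKM at 48 h against 135 FPKM at 36 h, after 70.7, 80.7 and 72.3 FPKM. Log2 changes in these lower runs lay between -1.35 and -1.01. The interval included equal levels in 0 of their genes, and it lay wholly past 2-fold in 1 of them.

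Genes of short span and genes near contig ends had larger shares past 2-fold. Span is the distance from first to last position on the contig, and it can exceed the transcript length behind FPKM. Genes with a span under 1 kb were higher in 5.61% of cases and lower in 4.29%, against 1.52% and 0.951% of genes of 3 kb or more, and their median fragments in both libraries were 153 against 1360. Clear of counting error and higher were 0.683% of the genes under 1 kb (14 genes) and 0.951% of those of 3 kb or more (10 genes). The order thus turned among higher genes. Clear and lower were 0.537% of the genes under 1 kb (11 genes) and 0.380% of those of 3 kb or more (4 genes). Between them stood 0.308% at 1 to 2 kb and 0.648% at 2 to 3 kb, so clear lower genes had no steady order by span. Within 100 kb of the ends of the 8 long contigs, 14 of 289 genes were higher at 48 h (4.84%) and 9 lower (3.11%). Elsewhere 2.68% were higher and 1.94% lower. Clear of counting error and higher were 5 genes near the ends (1.73%) and 61 elsewhere (0.713%). The higher genes near ends include the run of 5 genes on unitig_6 described above, 3 of which were clear. They also include the gene from 45334 to 47093 beyond that run, so neighbours in 1 place make up much of these counts. These shares are descriptions of 1 pair of libraries, in which neighbouring genes are not independent, and their differences were not tested. In whichever library was higher, genes near ends had 9.05 FPKM in the median and genes elsewhere 35.0, and the part of level in this difference was not tested.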

How the data were processed

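RNA sequencing values of 6 libraries, made with RNeasy and TruSeq RNA kits per the labels, were used, with groups taken from the age and air supply in the labels. FPKM values were deposited by the authors. Among tools, TopHat2 2.0.9 and Cufflinks 2.1.1 are listed per the submitters' processing notes, while these sources do not give the genome build or annotation. Deposited columns headed as counts are a signal that the authors scaled to 1 total per table. Dividing each by its step gave whole fragments, within 0.1, for at least 99.9% of values. FPKM at 24 h was identical at 9930 of 9930 loci in both tables. The other table held 4 value columns that match no label and were not used. One identifier stood in 2 rows, which were kept by position.

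Log2 changes used log2(FPKM + 1), genes of at least 1 FPKM in either library, and a 2-fold limit. With 1 library per group no test of the step was made. Intervals of fragment ratios are exact 95% Clopper-Pearson intervals, checked on simulated data. Genes expected past 2-fold came from the exact binomial distribution of each gene's fragments. The rule for named genes was the 2 largest log2 changes each way at 10 FPKM or more, changed to require 100 fragments. Other genes given by position, and lists clear of counting error, were chosen after values were seen. Gene lists by function could not be applied. Members, lists and rules were chosen with earlier results of these data known. Coordinates count from 1 on the authors' contigs. Python 3.11.15, scipy 1.17.1, R 4.3.3 and edgeR 4.0.16 were used. Alternatives were other pseudocounts, filters and scalings, and a trend test in edgeR.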

Additional observations from a re-analysis of the deposited data

How the results depend on the processing

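The direction of the balance and of each named gene was kept in all alternatives run, and the counts were not. Higher and lower genes numbered 371 and 283 with a pseudocount of 0.1 FPKM, 106 and 70 with 5 FPKM, and 137 and 108 with a filter of 10 FPKM. They numbered 175 and 114 in fragments scaled to library size, and 155 and 121 with at least 20 fragments over both libraries, a limit added after the data were seen. Of the genes past 2-fold, 57.8% were higher in the deposited values, 62.7% with a common sum of FPKM and 64.6% with changes centred on the median. The median log2 change was -0.0497 with the filter of 10 FPKM, -0.0046 with a common sum and 0 when centred. Runs numbered 8 with a pseudocount of 0.1 FPKM and 0 with 5 FPKM, 2 with a common sum, when centred or in fragments scaled to library size, and 34 at 1.5-fold. Of the 66 clear genes higher at 48 h, 27.3% were higher at 24 h against 12 h with a pseudocount of 5 FPKM. With that pseudocount, 39.5% of the clear lower genes were higher at 12 h against 6 h. With the median of ratios as scale, 76 genes were clear and higher and 34 clear and lower. The cause of these shifts was not tested. No paired analysis was possible because each group has 1 library, and no library could be left out for the same reason. An edgeR quasi-likelihood test of log2 time on the recovered fragments of the 5 libraries, added after the data were seen, called 874 genes rising and 858 falling of 8987 at a Benjamini-Hochberg adjusted p below 0.05. It has 3 residual degrees of freedom and does not test the last step. Its error comes from departures from a line in log2 time across single libraries, not from a spread between cultures. Counts of 10 and 1000 fragments carry a relative counting SD of 31.6% and 3.16%.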

Other observations

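On unitig_4 a group of neighbours that did not meet the definition of a run was lower at 48 h, a window chosen after its values were seen. The gene from 3790509, described in the report, is followed by one from 3792621 to 3794057 with 76.9 FPKM at 48 h against 99.5 FPKM at 36 h. The next gene, from 3794434 to 3795099, had 47.3 FPKM at 48 h against 134 FPKM at 36 h, and the gene from 3795513 to 3796436 at 2.01 and 11.3 FPKM, with 6 fragments at 48 h and 29 at 36 h. The flanking genes from 3787833 and from 3797942 had log2 changes of -0.67 and -0.25. At 6 h the gene from 3794434 was at 10.4 FPKM and at 12 h at 88.1 FPKM, and the gene from 3790509 at 11.2 and 124 FPKM, so both shared the step up by 12 h as well as the step down after 36 h.

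The 8 long contigs held higher genes in 2.30% (unitig_0) to 3.27% (unitig_2) of cases and lower genes in 1.49% (unitig_6) to 2.99% (contig 1).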
